A study of Mus musculus with 7 samples.

Results

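The genes described here are 6 signalling genes of the fibroblastic reticular cell, the fibroblast that builds the scaffold of a lymph node: Grem1, Pdgfra, Pdgfrb, Pdgfrl, Pdpn and Il7. They were found among 41174 probes of a mouse expression array by RefSeq accession or, for cDNA clones, by the product named in the probe's description, which gave 11 probes (9 by accession and 2 clone probes). All 6 genes passed the filter on dim probes, among 29925 genes and unnamed probes tested. The data are 7 dual-dye Agilent arrays of total RNA from lymph nodes of female mice aged 12 weeks, with tissue of 5 mice pooled in every channel and no treatment named. The pancreatic lymph node (PLN) was always in the red channel. The green channel held the gut-draining mesenteric node (MLN) on 4 arrays, 1 for each of the strains NOD, NOD.B10, FVB and BALB/c. It held the inguinal node (ILN), which collects lymph from skin and mammary fat, on 3 arrays, 1 each for all these strains but BALB/c. Autoimmune diabetes arises spontaneously in NOD mice, and the NOD.B10 strain carries another major histocompatibility complex on their background. Titles and source names give NOD.B10 where the strain entry of the same arrays reads NOD, and the titles were followed.

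Fibroblastic reticular cells make the collagen conduits of the node and guide lymphocytes with chemokines. Platelet-derived growth factors (PDGF) drive growth of fibroblasts and of the mural cells around vessels through the receptor kinases encoded by Pdgfra and Pdgfrb. Podoplanin, encoded by Pdpn, relaxes the actin cytoskeleton of reticular cells when CLEC-2 on dendritic cells or platelets binds it, interleukin 7 keeps naive T cells alive, and gremlin 1, encoded by Grem1, is secreted and traps bone morphogenetic proteins (BMP) before they reach their receptors.

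RefSeq promoters of assembly GRCm38.p6 were at hand for 3 of the 6 genes, and their 250 bases before the transcription start are shown whatever the call. Grem1 rose in PLN over ILN while Pdgfra and Pdpn were not called there, and a link of the motifs to these values was not tested. Capitals mark matches, on either strand, to the core promoter box TATAAA, to the Sp1 site GGGCGG, to the nuclear receptor element AGGTCA or to the NF-kB motif.
Grem1, chr2:113758649-113758898, minus strand: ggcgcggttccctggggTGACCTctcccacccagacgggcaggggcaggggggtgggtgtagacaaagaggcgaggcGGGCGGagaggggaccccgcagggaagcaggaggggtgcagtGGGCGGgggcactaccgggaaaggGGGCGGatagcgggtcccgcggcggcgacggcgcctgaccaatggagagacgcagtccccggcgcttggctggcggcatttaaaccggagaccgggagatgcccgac
Pdpn, chr4:143299565-143299814, minus strand: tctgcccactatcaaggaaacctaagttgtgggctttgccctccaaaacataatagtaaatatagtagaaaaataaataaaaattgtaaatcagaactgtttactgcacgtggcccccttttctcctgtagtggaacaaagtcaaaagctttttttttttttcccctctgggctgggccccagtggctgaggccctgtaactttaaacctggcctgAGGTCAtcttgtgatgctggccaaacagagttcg
Pdgfra, chr5:75152001-75152250, plus strand: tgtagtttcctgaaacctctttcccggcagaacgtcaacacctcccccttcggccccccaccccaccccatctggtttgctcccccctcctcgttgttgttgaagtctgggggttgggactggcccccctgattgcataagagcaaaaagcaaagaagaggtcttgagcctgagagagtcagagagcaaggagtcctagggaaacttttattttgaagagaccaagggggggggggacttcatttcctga
The Grem1 window held 3 Sp1 sites, with first bases at positions -173, -131 and -107 from the start, and 1 nuclear receptor element in reverse orientation at position -233. The Pdpn window held 1 nuclear receptor element at position -34 and no Sp1 site, and the Pdgfra window held none of the 4 motifs. Of 32851 promoters searched over the same length, 32.7% held the Sp1 site, 14% the nuclear receptor element, 12.4% the core promoter box and 7.25% the NF-kB motif.

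Median spot intensity ranged from 68 to 105 units for PLN and from 86.1 to 199 for the other node, with 45.9% to 59% and 50.7% to 88.9% of probes well above background. Of 8 lymphocyte genes measured, 7 were well above background in all PLN and MLN channels and 8 in all ILN channels, at summed levels of 13.98 to 15.78 in PLN, 14.21 to 16.16 in MLN and 14.21 to 14.26 in ILN (log2). Genes of pancreatic acinar cells, mostly of digestive enzymes, stood apart. Of these, 10 of 10 were well above background in all channels. Their summed levels were 17.15 to 20.48 in PLN, 13.19 to 18.54 in MLN and 13.32 to 13.82 in ILN. The MLN channel of the BALB/c array had a median acinar level of 15.24, against 9.64 to 12.3 on the other MLN channels. PLN over MLN fits without that array are given for Grem1, Pdgfrl and Il7. The arrays were read on 2 scanners, per the file headers: an earlier one holding the BALB/c and NOD arrays of the MLN, and a later one holding the other 5. Their number limits the precision, and the p-values measure the spread between pools of different strains. No dye swap was made, so a dye effect of a gene stays in both PLN comparisons. It cancels in ILN over MLN only if it was the same on all arrays and both scanners.

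Grem1 was higher in PLN than in ILN. On the log2 scale its PLN over ILN ratios were 0.80 in FVB, 1.06 in NOD and 0.64 in NOD.B10, all above 0. The fit gave 0.83 ± 0.16 (SE; SD 0.21, n = 3), a 1.78-fold higher level with a 95% interval of 0.47 to 1.2, and an adjusted p of 0.041 with limma over all genes tested, where an adjusted p under 0.05 is a call. In RNA of whole nodes, more cells of a type and more RNA per cell cannot be told apart. In this comparison 589 of 29925 genes and probes were called (1.97%), 451 of them higher in PLN (1.51%) and 138 lower (0.461%). Of the 6 reticular genes 2 were called, Grem1 upward and Pdgfrl downward. The 6 were chosen with earlier results of these data known, so their share is a description only.

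The Grem1 call stood close to the threshold. It held with the scanner as a block (adjusted p 0.00557) and among the 5 arrays of the later scanner alone (0.00865). The estimate of 0.83 was the same in both, since all ILN arrays lie on that scanner. For that reason neither fit can take a scanner effect out of PLN over ILN. Only the SE changed, to 0.082 and 0.086. The call was lost with strain as a block on the 6 arrays of FVB, NOD and NOD.B10 (0.0771). That fit pairs the MLN and ILN arrays of a strain. With arrays centred on their median in place of loess the call was lost too (0.99). It was also lost in each of these fits without 1 array: without the FVB, NOD or NOD.B10 array of the ILN (adjusted p 0.109, 0.0989 and 0.232), and without the BALB/c or FVB array of the MLN (0.055 and 0.0528).

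Against MLN, Grem1 gave no common direction. Its PLN over MLN ratios were -0.20 in BALB/c, 0.46 in FVB, -0.38 in NOD and 0.43 in NOD.B10. The negative pair are the arrays of the earlier scanner and the positive pair those of the later one, and the part of the scanner in this was not tested. The fit gave 0.08 ± 0.14 (SD 0.43, n = 4; adjusted p 0.799), and 0.44 ± 0.11 among the later scanner's arrays (adjusted p 0.482). Without the BALB/c array it was 0.17 (0.633), and with median centring 0.81 (0.0942), so the size depended on the normalisation.

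Grem1 levels, the channel signals on the log2 scale after scaling across arrays, were 7.70 to 8.03 in the 3 ILN channels, 8.04 to 8.42 in the 4 MLN channels and 7.77 to 8.85 in the 7 PLN channels. After this scaling the ILN channels lay just below all MLN channels, while PLN overlapped both. The order was lost with channels normalised within arrays only, where ILN read 7.81 to 8.11 and MLN 7.49 to 9.08. NOD PLN was measured on both scanners and read 7.77 on the MLN array and 8.75 on the ILN array, a difference of -0.98 between channels that the labels describe alike. Between these NOD channels the median gene differed by 0.17 and the 95th percentile of genes by 0.95. In FVB and NOD.B10, whose arrays shared a scanner, the median gene differed by 0.09 and 0.14, the 95th percentiles were 0.34 and 0.62, and Grem1 itself differed by -0.03 and 0.42. ILN over MLN, formed through the PLN, was -0.34 in FVB, -1.44 in NOD and -0.22 in NOD.B10, so NOD, whose arrays were split between scanners, gave the largest of these differences. The fitted value was -0.76 ± 0.21 (adjusted p 0.39), -0.39 ± 0.14 within the later scanner (0.996) and -0.09 with median centring (0.94).

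**Figure D1:**
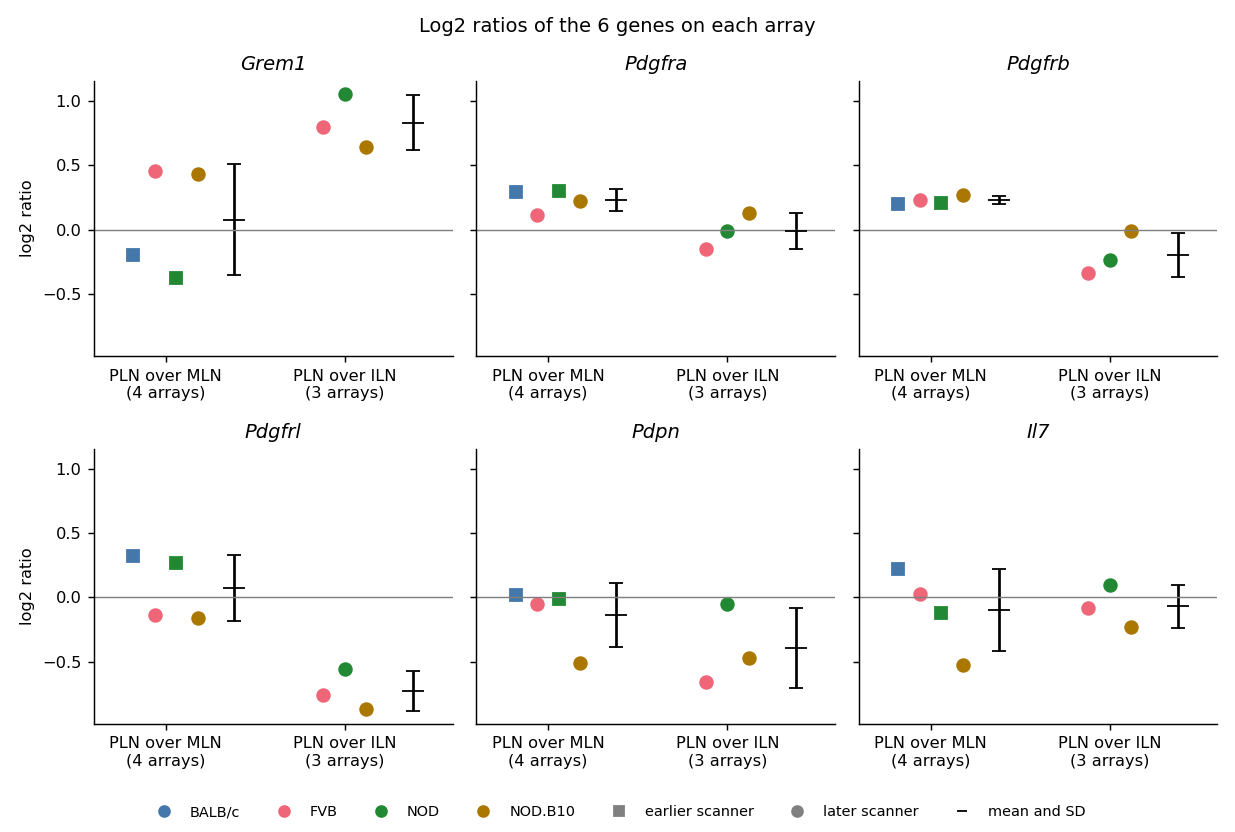
Log2 ratios of PLN over MLN (4 arrays) and PLN over ILN (3 arrays) for each gene, with 1 point per array, colour for strain, squares for the earlier and circles for the later scanner, and the mean with its SD in black. Grem1 lies above 0 and Pdgfrl below 0 on all 3 PLN over ILN arrays, and both split by scanner in PLN over MLN.

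The BMP side of the pathway was read from 17 ligands, receptors and antagonists, of which 16 were tested and 1, Bmp4, rose in PLN over ILN. The list's median there was 0.16, against 0 for all genes tested. Bmp4, a ligand that gremlin 1 binds, had ratios of 0.18 in FVB, 0.33 in NOD and 0.51 in NOD.B10 and a fitted value of 0.34 ± 0.07 (adjusted p 0.0474). The Bmp4 call was lost under 14 of 20 alternatives, among them strain as a block (0.0778), scanner as a block (0.0665) and the later scanner alone (0.104), while the sign held under all 20. Ratios of the antagonist Grem1 and of this ligand were above 0 on all 3 ILN arrays. The ligand Bmp2 was at 0.16 ± 0.09 (0.323), and the receptors Bmpr1a and Bmpr2 at 0.16 ± 0.08 (0.289) and 0.25 ± 0.08 (0.151).

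Genes that BMP signalling switches on did not pass the test in either direction: 0 of 7 were called in any comparison, and their median in PLN over ILN was -0.03. Id1, a transcriptional inhibitor induced by BMP, had PLN over ILN ratios of -0.08, 0.11 and 0.19, and its relative Id3 a fitted value of -0.12 ± 0.08 (adjusted p 0.403). Against MLN, Id1 was at 0.19 ± 0.05 (0.202), above 0 on 4 of 4 arrays, without passing the threshold.

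Pdgfrl, which encodes a secreted protein resembling the ligand-binding part of a PDGF receptor without its kinase, was lower in PLN than in ILN. Its log2 PLN over ILN ratios were -0.76 in FVB, -0.56 in NOD and -0.87 in NOD.B10, all below 0 and apart from every PLN over MLN ratio. The fitted value was -0.73 ± 0.11 (SD 0.16, n = 3), a 1.66-fold lower level in PLN, with an interval of -0.98 to -0.49 and an adjusted p of 0.0152. The call held within the later scanner (0.00821), a fit that cannot take a scanner effect out, since all ILN arrays lie there. It was lost without the FVB array (0.053) or the NOD.B10 array (0.191) of the ILN.

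The Pdgfrl probe was dim, and the size of its difference moved with the background correction. Its spot intensities on the ILN arrays were 103, 68 and 110 in the PLN channel over backgrounds of 66, 62 and 63, and 210, 124 and 311 in the ILN channel over 52, 47 and 52. The PLN channel of the NOD array was not well above background. With the offset of the background correction set to 0 the estimate was -1.42, and in the deposited value table -1.86, both without a call (adjusted p 0.123 and 0.0732). A second Pdgfrl probe, from a cDNA clone and well above background in PLN on no array, had a mean of -0.05 and so did not show the difference.

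Against MLN, Pdgfrl ratios were 0.32 in BALB/c, -0.14 in FVB, 0.27 in NOD and -0.16 in NOD.B10, with the positive pair on the earlier scanner and the negative pair on the later. The fit gave 0.07 ± 0.09 (SD 0.26, n = 4; adjusted p 0.699), -0.15 ± 0.09 within the later scanner (0.524) and -0.0092 without the BALB/c array (0.97). After scaling across arrays, ILN channels read 6.96 to 7.54, above all 4 MLN channels at 6.60 to 6.75, with PLN at 6.39 to 7.02. With channels normalised within arrays only, ILN at 6.74 to 7.57 and MLN at 6.17 to 7.75 overlapped. ILN over MLN was 0.62 in FVB, 0.84 in NOD and 0.71 in NOD.B10, above 0 in each strain. NOD PLN read 0.63 higher on the MLN array than on the ILN array. The fitted ILN over MLN value, which also drew on the BALB/c array, was 0.81 ± 0.14 (adjusted p 0.0762). It was 0.72 (0.102) with strain as a block and 0.58 (0.406) within the later scanner. Of 29925 genes and probes 80 were called in this comparison (0.267%), and none of the 6 genes was. Without overlap between the 4 MLN and the 3 ILN array ratios stood 3 of the 6 (Grem1, Pdgfrb and Pdgfrl), against 2157 of 29529 genes and probes (7.3%). At an unadjusted p under 0.05 were 4 of the 6, against 1973 (6.59%). Since the 6 genes were chosen with earlier results of these data known, these shares are a description and no test of the set.

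**Figure D2:**
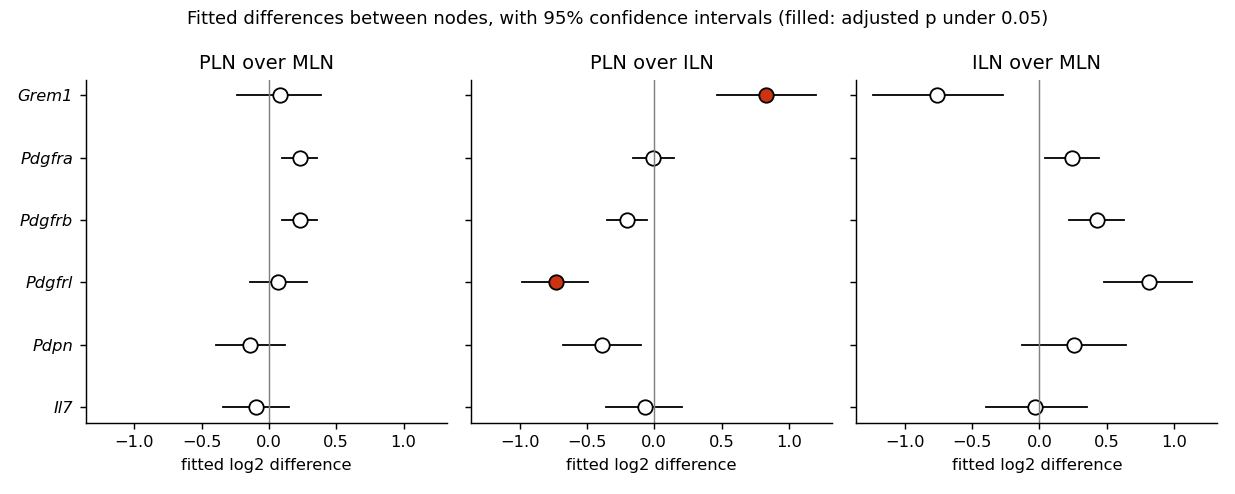
Fitted log2 differences of the 6 genes in the 3 comparisons, with 95% confidence intervals as lines and filled points for an adjusted p under 0.05 (limma). Only Grem1 (0.83) and Pdgfrl (-0.73) in PLN over ILN are filled.

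**Figure D3:**
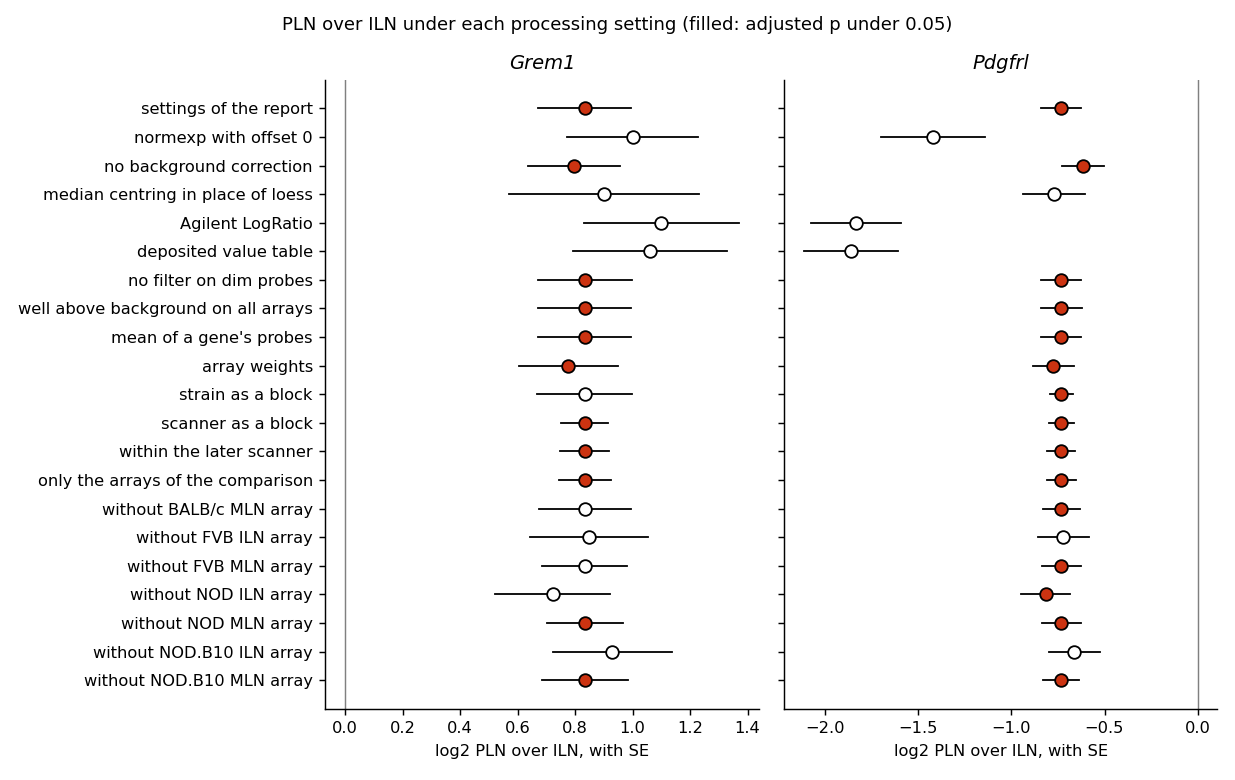
Log2 PLN over ILN of Grem1 and Pdgfrl with SE under the settings of the report and each alternative or left-out array, filled where the adjusted p was under 0.05 (limma). Every Grem1 point lies above 0 (0.72 to 1.1) and every Pdgfrl point below 0 (-1.86 to -0.62), with 10 of 20 and 6 of 20 alternatives unfilled.

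The receptor kinase genes Pdgfra and Pdgfrb were not called in any comparison, and the size of their difference from MLN depended on the normalisation. With loess both were at 0.23 in PLN over MLN. With arrays centred on their median they were at 0.96 and 0.92 (adjusted p 0.0851 for both), and at 0.90 and 1.05 in ILN over MLN (0.441 for both), where the median of all genes stood at 0.072 and 0.133. The cause was not tested. Pdgfrb, which reticular and mural cells carry, had PLN over MLN ratios of 0.20 in BALB/c, 0.23 in FVB, 0.21 in NOD and 0.27 in NOD.B10. These lay within a range narrower than that of any other of the 6 genes and were above 0 on both scanners. The fitted value was 0.23 ± 0.06 (SD 0.03, n = 4; adjusted p 0.181), a 1.17-fold higher level, with an interval of 0.10 to 0.36. In PLN over MLN 0 of 29925 genes and probes were called (0%), the lowest adjusted p being 0.0835. At an unadjusted p under 0.05 were 4634 genes and probes (15.5%), Pdgfra and Pdgfrb among them.

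Against ILN, Pdgfrb ratios were -0.34 in FVB, -0.24 in NOD and -0.01 in NOD.B10, none above 0, with a fitted value of -0.20 ± 0.07 (adjusted p 0.162). ILN over MLN was 0.57, 0.45 and 0.28 in the same strains, the same sign in each, and fitted at 0.43 ± 0.09 (0.15).

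Pdgfra, the receptor kinase of fibroblasts and their progenitors, had PLN over MLN ratios of 0.29 in BALB/c, 0.11 in FVB, 0.30 in NOD and 0.22 in NOD.B10. All were above 0, and the fit gave 0.23 ± 0.06 (SD 0.09, n = 4; adjusted p 0.176). Its PLN over ILN ratios were -0.15, -0.01 and 0.13 in FVB, NOD and NOD.B10, on both sides of 0, with a fitted value of -0.01 ± 0.07 (0.961) and an interval of -0.16 to 0.15. ILN over MLN was fitted at 0.24 ± 0.09 (0.645). A second, dim Pdgfra probe gave means of 0.05 against MLN and 0.15 against ILN.

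Mean levels of both receptor kinases spread more widely over strains than over nodes, though PLN readings of a strain also differed between its arrays. Pdgfrb read 8.54 to 8.74 in the 2 BALB/c channels, 8.48 to 8.98 in the 4 FVB channels, 7.81 to 8.22 in NOD and 7.47 to 7.78 in NOD.B10. BALB/c and FVB overlapped and lay above NOD, which lay only just above NOD.B10 (7.81 against 7.78). This order rests on the scaling across arrays. With channels normalised within arrays only, Pdgfrb in NOD read 7.17 to 8.32, overlapping BALB/c (8.09 to 8.29) and NOD.B10 (7.53 to 7.81). By node, its means were 8.21 in PLN (SD 0.54, n = 7), 8.15 in MLN (0.59, n = 4) and 8.18 in ILN (0.67, n = 3), SDs that hold the strain differences. Within arrays the PLN was above the MLN on 4 of 4 and not above the ILN on any, as the ratios show. Pdgfra read 7.98 to 8.27 in BALB/c, 8.29 to 8.47 in FVB, 7.87 to 8.54 in NOD and 7.44 to 8.24 in NOD.B10. FVB lay just above NOD.B10 and BALB/c, and NOD overlapped all of them. Strain means of Pdgfra ran from 7.82 to 8.39 and node means from 7.92 to 8.18. Between the MLN and ILN arrays of a strain, Pdgfra in PLN differed by 0.18 in FVB, 0.67 in NOD and 0.66 in NOD.B10. Pdgfrb differed by 0.50, 0.04 and 0.31, against 95th percentiles of all genes of 0.34, 0.95 and 0.62.

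All 4 FVB channels above all 4 NOD.B10 channels was seen in 2 of the 6 genes and in 1902 of 29769 genes and probes (6.39%). This pattern was looked for after the Pdgfrb levels had been seen. Channels of an array share its hybridisation, and the labels do not say whether both arrays of a strain held the same PLN pool, so strain levels are given with no test. The mean gap of FVB over NOD.B10 in Pdgfrb was 1.2, and 1.54 when channels were normalised within arrays only. Under that setting FVB also rose against NOD.B10 in Pdgfrl, Pdpn and Il7, so the larger gap was not particular to Pdgfrb. The opposite order, all FVB below all NOD.B10 channels, was seen in 1651 genes and probes (5.55%) and in 0 of the 6. Of the mural cell list, 2 of 12 genes (Kcnj8 and Cnn1) showed the same pattern and 0 the opposite. Of 8 blood endothelial genes 0 showed it and 1 (Pecam1) the opposite, and of the fibroblast list 0 of 18 showed it and 4 (Thy1, Ly6a, Dpp4 and Gli1) the opposite.

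**Figure D4:**
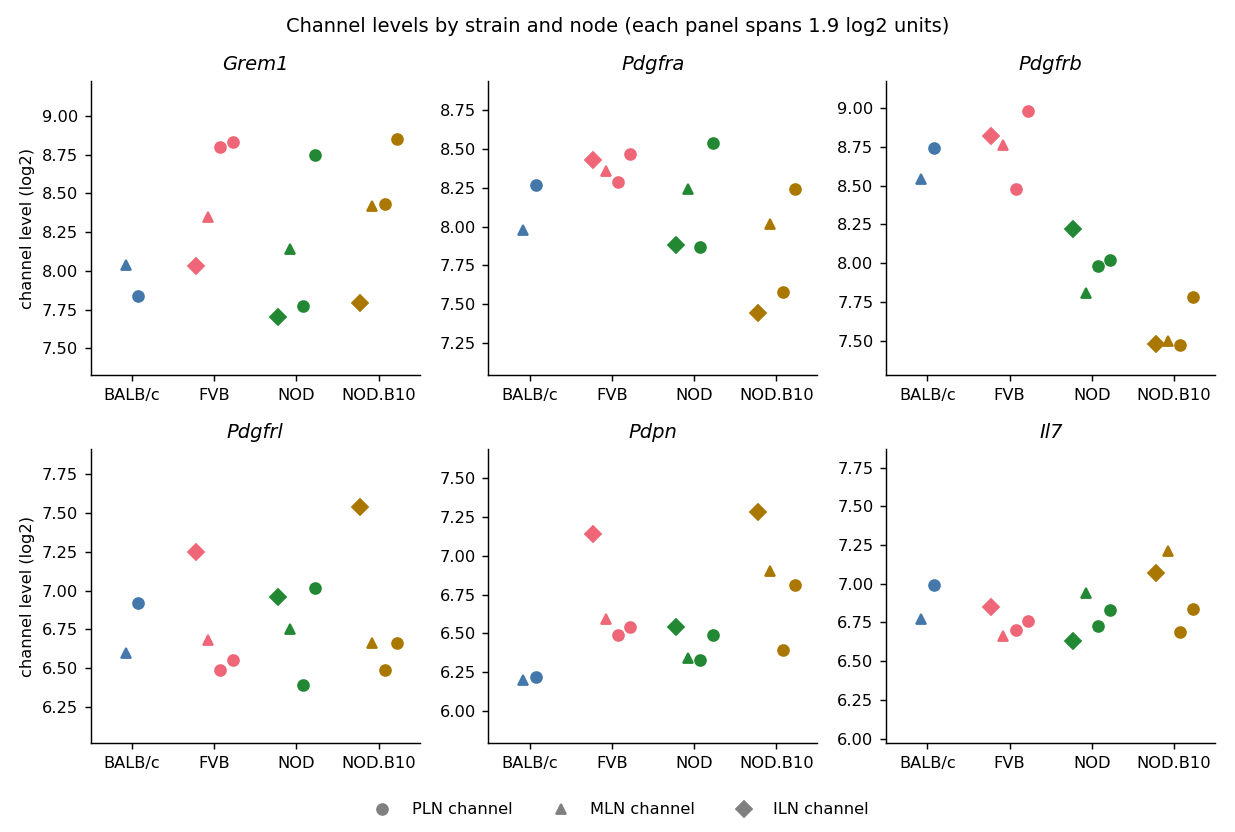
Channel levels (log2, scaled across arrays) of each gene by strain, with circles for PLN, triangles for MLN and diamonds for ILN channels. Every panel has an axis of the same length. Pdgfrb steps down from FVB (8.48 to 8.98) over NOD (7.81 to 8.22) to NOD.B10 (7.47 to 7.78), and the ILN diamonds of Grem1 lie low while those of Pdgfrl lie high within each strain, except that the NOD PLN channel at 7.02 tops the Pdgfrl ILN channel there at 6.96.

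All 4 PDGF ligand genes were tested, and Pdgfa rose in PLN over ILN. Its ratios were 0.35 in FVB, 0.37 in NOD and 0.50 in NOD.B10, with a fitted value of 0.41 ± 0.06 (adjusted p 0.0115), though a second Pdgfa probe had a mean of 0.08. The call held with strain as a block (0.0498). It was lost under 7 of 20 alternatives, among them the mean of the gene's probes (0.245, adjusted p 0.0517). Pdgfa encodes the chain that binds the receptor made by Pdgfra, whose own ratios lay around 0 on the same arrays. Pdgfb, Pdgfc and Pdgfd had fitted PLN over ILN values of 0.08 ± 0.08 (0.567), 0.10 ± 0.07 (0.436) and -0.03 ± 0.05 (0.785). The 4 ligands had a median of 0.09 in PLN over ILN and 0.01 in PLN over MLN, against 0 for all genes.

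Pdpn was near background and not called in any comparison. It was well above background on 3 of 7 PLN, 2 of 4 MLN and 3 of 3 ILN channels. Its PLN over ILN ratios were -0.66 in FVB, -0.05 in NOD and -0.47 in NOD.B10, all below 0, with a fitted value of -0.39 ± 0.13 (SD 0.31, n = 3; adjusted p 0.153). The PLN over MLN ratios were 0.02 in BALB/c, -0.05 in FVB, -0.01 in NOD and -0.51 in NOD.B10. The first 3 lay near 0 and NOD.B10 apart from them, with a fitted value of -0.14 ± 0.11 (SD 0.25, n = 4; 0.545). Of these MLN arrays, only that of NOD.B10 had both Pdpn channels well above background. A second Pdpn probe gave -0.01 against MLN and 0.09 against ILN, so the probes disagreed in sign in the latter. ILN over MLN was 0.61, 0.04 and -0.04 in FVB, NOD and NOD.B10 and fitted at 0.26 ± 0.17 (0.873).

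Partners of podoplanin gave 0 called genes of 8 in every comparison, with medians of -0.02 in PLN over MLN and -0.04 in PLN over ILN. Clec1b, which encodes the receptor CLEC-2, had PLN over ILN ratios of 0.06, 0.16 and 0.46 in FVB, NOD and NOD.B10 and a fitted value of 0.23 ± 0.10 (adjusted p 0.235).

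Il7 showed no difference between nodes that stood out from the spread. Its PLN over MLN ratios were 0.22 in BALB/c, 0.03 in FVB, -0.12 in NOD and -0.53 in NOD.B10, with a fitted value of -0.10 ± 0.11 (SD 0.32, n = 4; adjusted p 0.659), an interval of -0.34 to 0.15, and -0.20 without the BALB/c array (0.482). The ratios thus fell on both sides of 0. Its PLN over ILN ratios were -0.08 in FVB, 0.10 in NOD and -0.23 in NOD.B10, with a fitted value of -0.07 ± 0.13 (SD 0.17, n = 3; 0.77) and an interval of -0.36 to 0.21. Levels were 6.69 to 6.99 in PLN, 6.66 to 7.21 in MLN and 6.63 to 7.07 in ILN, overlapping throughout, with spots well above background on all arrays. ILN over MLN was fitted at -0.03 ± 0.17 (0.994). Both other Il7 probes, well above background in PLN on no array, had means between -0.08 and 0.03.

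On the receiving side, Il7r, the receptor chain by which T cells bind interleukin 7, was lower in PLN than in ILN. Its ratios were -0.22 in FVB, -0.67 in NOD and -0.61 in NOD.B10, with a fitted value of -0.50 ± 0.09 (adjusted p 0.0266) and a second probe at -0.38. The call was lost under 10 of 20 alternatives, among them strain as a block (0.0649) and the later scanner alone (0.0694). It was the only called gene of 12 receptor and signalling genes, whose median in PLN over ILN was 0.01. Il2rg, the shared cytokine receptor chain, was at 0.01 ± 0.09 (0.97) against ILN and 0.36 ± 0.08 (0.149) against MLN. The leukocyte gene Ptprc was also lower in PLN over ILN, at -0.59, the only one called of 8 lymphocyte genes, though its other probes were at -0.18 and -0.23. The median of that list was -0.02, and the part of lymphocyte content in the Il7r value was not tested.

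**Figure D5:**
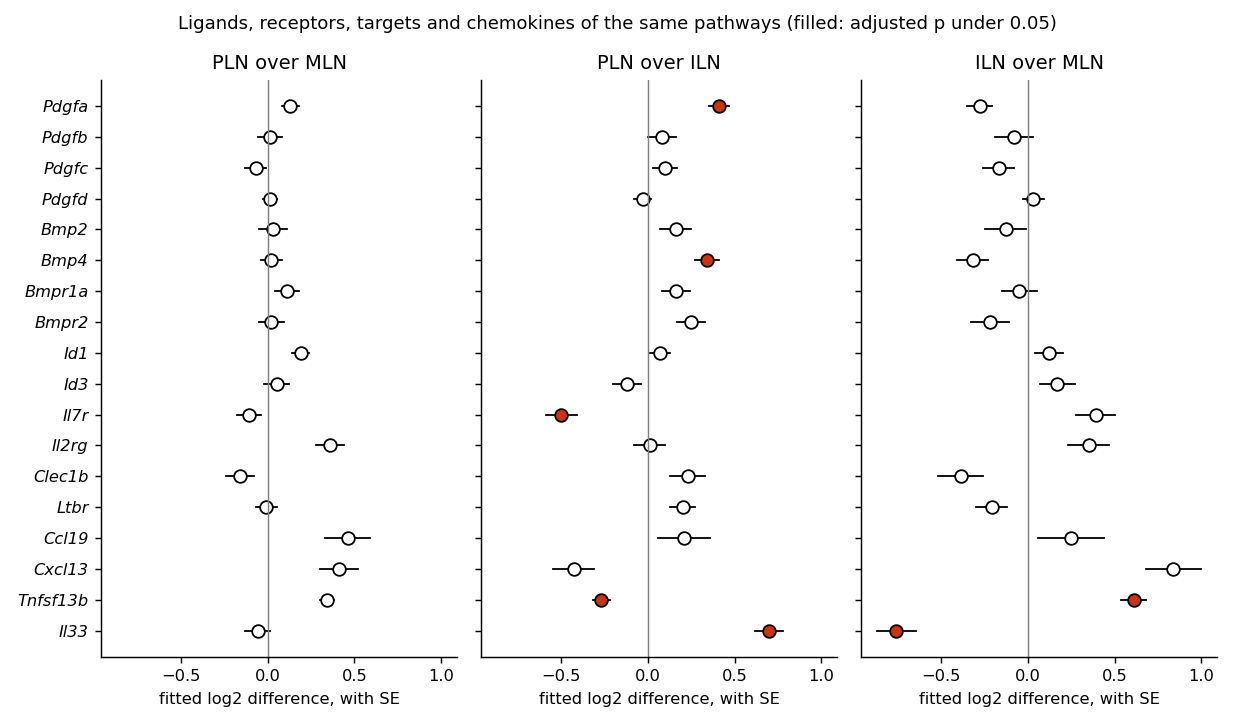
Fitted log2 differences with SE for ligands, receptors, target genes and chemokines of the same pathways in the 3 comparisons, filled where the adjusted p was under 0.05 (limma). Pdgfa (0.41), Bmp4 (0.34) and Il33 (0.70) are filled to the right and Il7r (-0.50) and Tnfsf13b (-0.27) to the left in PLN over ILN, and none is filled in PLN over MLN.

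Other signals of reticular cells split in direction. Of 12 chemokine and lymphotoxin pathway genes tested, 2 rose and 1 fell in PLN over ILN, with a list median of 0.05. Il33, an alarmin kept in reticular cell nuclei, had ratios of 0.85, 0.48 and 0.77 in FVB, NOD and NOD.B10 (0.70 ± 0.08, adjusted p 0.00657), and Tnfrsf1a, a receptor for tumour necrosis factor, was at 0.33 ± 0.06 (0.0384). Tnfsf13b, the B cell survival factor BAFF, was at -0.27 ± 0.05 (0.0352) in PLN over ILN and at 0.61 ± 0.07 (0.0101) in ILN over MLN. With strain as a block the PLN over ILN calls of Tnfrsf1a (0.0806) and Tnfsf13b (0.0937) were lost, each under 13 of 20 alternatives in all, and that of Il33 held (0.0203). ILN over MLN also called Il33, at -0.76 ± 0.11 (0.036), so these 2 of 12 genes moved in opposite directions there. With strain as a block neither was called in ILN over MLN (0.125 for both), and centring arrays on their median in place of loess turned Il33 to 0.0662 (0.961). The T zone chemokine Ccl19 was at 0.46 ± 0.13 (0.198) in PLN over MLN and 0.21 ± 0.15 (0.429) in PLN over ILN. The follicle chemokine Cxcl13 was at 0.41 ± 0.11 (0.188) and -0.43 ± 0.12 (0.118), above 0 on all MLN arrays and below 0 on all ILN arrays. Ltbr, the lymphotoxin receptor that matures reticular cells, was at 0.20 ± 0.07 (0.156) in PLN over ILN.

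Markers of other stromal cells moved beside Grem1 and Pdgfrl in PLN over ILN. Of 18 fibroblast genes, 3 rose: Lum, a collagen-binding proteoglycan (2.69 ± 0.13, adjusted p 0.000203), Pi16 of adventitial fibroblasts (0.60 ± 0.11, 0.0352) and Dcn, another proteoglycan (0.56 ± 0.10, 0.0352). Under the 20 alternatives these calls were lost in 1, 13 and 9. The list's median was 0.08, and its summed levels were 14.12 to 15.62 in PLN, 14.31 to 15.95 in MLN and 14.14 to 14.42 in ILN. Of 7 lymphatic endothelial genes, 3 rose: Lyve1 (1.11 ± 0.12, 0.0039), Stab2 (0.81 ± 0.08, 0.00348) and Reln (0.60 ± 0.09, 0.0199), with a list median of 0.36. A second Lyve1 probe was at 0.50, and Prox1, the transcription factor that defines lymphatic endothelium, had ratios of -0.19 in FVB, -0.02 in NOD and -0.26 in NOD.B10 and was not called (-0.16 ± 0.07, 0.277). Summed lymphatic levels were 10.67 to 11.06 in PLN, 10.77 to 11.18 in MLN and 10.11 to 10.20 in ILN. Of 12 mural cell genes, Tagln, of smooth muscle, fell (-0.93 ± 0.13, 0.0146; a second probe at -0.52), while the list's median was 0.01, with summed levels of 12.31 to 12.51 in PLN and 12.50 to 12.74 in ILN. Emcn, of blood endothelium, fell by 0.42 (0.0117), the only one of 8, and Clu, of follicular dendritic cells, rose by 0.38 (0.0455, lost under 13 of 20 alternatives), the only one of 6.

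White fat genes gave 0 calls of 10, yet their median ratio in PLN over ILN was 1.32 in NOD and 1.58 in NOD.B10 against -0.25 in FVB, the FVB array being one on which Grem1 stood at 0.80 and Pdgfrl at -0.76. Acinar genes rose in 7 of 10, with medians of 4.76, 3.42 and 4.20. The part of these cell types in the values of Grem1 and Pdgfrl was not tested. Among the pathway and marker genes named above, each call in PLN over ILN outside the 6 genes was lost when the ILN array of NOD.B10 was left out, except that of Lum.

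The genes most like Grem1 over the 7 arrays, among 698 others that were well above background in all channels and had an SD of at least 0.3, were Hpgd (Pearson r = 0.902), Psap (0.901) and Unc5b (0.90). For Pdgfrl they were S100a6 (0.962), Cbr2 (0.958) and Anxa1 (0.937) among 699. Of these, Hpgd (0.38, adjusted p 0.0412), Psap (0.54, 0.0246) and S100a6 (-1.01, 0.000789) were called in PLN over ILN. Among the 6 genes themselves, Pdgfra and Pdgfrb ran most alike (r = 0.89) and Grem1 and Pdgfrl most opposed (-0.88). The 7 points share the PLN channel, scanners and the split between MLN and ILN arrays, and the values are a description only.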

How the data were processed

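The deposited scanner files, made with Agilent Feature Extraction 8.5.1.1, give spot and background intensity per channel and a log10 ratio after its own background and dye correction, per the file headers. The deposited files also mark each spot with 0 or 1 as saturated, as an outlier or as well above background. The deposited value table holds log2 values, which followed the log2 ratio of the processed red and green signal less a constant per array (correlations of 0.99989 or above), with column medians of 0.0073 to 0.0935. No source used here explains the constants.

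Here background was corrected by normexp (offset 50) and arrays normalised by loess in limma 3.58.1 (R 4.3.3). Control and outlier spots had weight 0, outlier spots were left out, and spots of a probe were averaged. Probes were named through RefSeq accessions (22072 of 41174) or a symbol in the description (1225), and 17877 had no symbol. A probe was kept if on at least 3 of 7 arrays 1 of its channels was well above background (35817 probes), and the probe of highest mean signal stood for its gene.

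A limma model with coefficients for PLN over MLN and PLN over ILN was fitted to all 7 arrays (residual degrees of freedom 5, prior 3.84), and the difference of its coefficients gave ILN over MLN. Tests were two-sided, with Benjamini-Hochberg adjustment over all 29925 genes and probes. Channel levels are on the log2 scale, scaled across arrays by Aquantile following loess, open to dye bias and not compared between genes. Summed levels are the log2 of a list's summed linear levels.

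The 6 genes and the 16 other lists were chosen with earlier results of these data known. Named beside the 6 were direct ligands, receptors, targets and chemokines, up to 3 called genes per list, and the 3 genes with the highest correlation to each called one. Ccl21a, Mmrn1, Muc16, Amy2 and Cd8a matched no probe, and Bmpr1b, Wt1 and Ptcra were below the filter. A few genes of these lists are not reported here and were left out of the counts. Each result was refitted under 20 alternatives where they gave a value. The model was tested on simulated data.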

Additional observations from a re-analysis of the deposited data

Results flagged for a closer look

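Of 18 groups of values examined (the PLN over MLN ratios, the MLN levels and the PLN levels of each of the 6 genes), 1 had an array far from the others. The log2 PLN over MLN ratio of Pdpn was -0.51 on the NOD.B10 array, against -0.05 to 0.02 on the other 3. On those other 3 the PLN channel of Pdpn was not well above background, while on the NOD.B10 array both channels were. Chance flags about 1 in 20 such groups.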

How the results depend on the processing

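Grem1 and Pdgfrl kept their sign in PLN over ILN under all 20 alternatives, with estimates of 0.72 to 1.1 and -1.86 to -0.62, and lost the call under 10 and 6 of them. Of the 6 genes, 0 were called in PLN over ILN with a normexp offset of 0, median centring, the Agilent log ratio or the deposited value table, 1 (Pdgfrl) with strain as a block on the arrays of FVB, NOD and NOD.B10, and 0 to 2 with an array left out. In ILN over MLN, 1 (Pdgfrl) was called with array weights and among probes well above background on all arrays, and 0 otherwise. In PLN over MLN none was called under any of them.

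Signs turned as follows, all without a call for the 6 genes, and the cause was not tested. In PLN over MLN, Il7 was at 0.0607 with median centring and -0.204 to 0.0466 with an array left out. Grem1 was at -0.0274 in the deposited table, -0.0365 with array weights and -0.0513 to 0.228 with an array left out. Pdgfrl was at -0.00916 with strain as a block, -0.149 with scanner as a block and within the later scanner, and -0.00916 to 0.152 with an array left out. In PLN over ILN, Pdgfra was at 0.0102 with offset 0, 0.0604 with median centring, 0.0697 as the mean of its probes, 0.0403 with array weights and -0.0771 to 0.0622 with an array left out, and Il7 at -0.158 to 0.00907 with an array left out. In ILN over MLN, Il7 was at 0.0197 without background correction, 0.204 with median centring, 0.0286 as the mean of its probes, 0.118 with array weights and -0.133 to 0.118 with an array left out. Median centring also moved Grem1 from 0.08 to 0.809 in PLN over MLN and from -0.76 to -0.0926 in ILN over MLN, Pdgfra and Pdgfrb from 0.23 to 0.964 and 0.923 in PLN over MLN, and put Il33 in ILN over MLN at 0.0662 and the median of all genes at 0.133. FVB minus NOD.B10 levels turned from -0.09 to 0.58 in Pdgfrl, from -0.15 to 0.52 in Pdpn and from -0.21 to 0.41 in Il7 without Aquantile scaling.

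Over all genes, calls in PLN over ILN (589) were 59 with offset 0, 0 with median centring, 69 with the Agilent log ratio, 36 in the deposited table, 1566 with array weights, 335 within the later scanner, 209 on its own arrays alone and 39 to 739 with an array left out. In ILN over MLN (80) they were 11, 0, 20, 13, 181 and 9 in the first 6 of these settings, 29 and 22 with strain and scanner as a block, and 19 to 97 with an array left out. In PLN over MLN (0) they were 37 without background correction, 189 with array weights, 33 with strain as a block, 20 within the later scanner and 0 to 46 with an array left out. Pdpn had no value among probes well above background on all arrays, and ILN over MLN none on the arrays of 1 comparison. Strain pairs the MLN and ILN arrays of FVB, NOD and NOD.B10, so the fit with strain as a block is the paired analysis of ILN over MLN. In PLN over ILN it left the Grem1 estimate at 0.834, while the Grem1 call was lost (adjusted p 0.0771) and that of Pdgfrl kept. Strain differences shared by both arrays of a strain are not part of the spread in that fit. Signals of Pdgfrl, Pdpn and Il7 near background limit what can be seen of them.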
